A study of Mus musculus with 6 samples.

Results

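The genes described are 46 marker genes of macrophages and other myeloid cells, read in cultures of mouse inguinal fat cells after differentiation. They comprise 10 markers of tissue-resident macrophages, 9 of inflammatory macrophages, 3 of lipid-associated macrophages and 24 pan-myeloid genes. They were chosen by gene symbol, and 79 of the 45101 probe sets of the Affymetrix mouse 430 2.0 array carried 1 of these symbols and no other. Each gene was read from its probe set with the highest mean, so that 46 of the 18194 genes named on the array are described. Total RNA came from 3 samples of cells given 1 uM rosiglitazone for 4 days and from 3 control samples, all of them differentiated inguinal fat cells. Rosiglitazone, an insulin-sensitizing drug, is an agonist of PPARγ, the nuclear receptor at the head of the fat cell programme. The comparison asks which of these markers differ between fat cell cultures with and without the drug. The labels give neither strain nor age, and they do not say whether the cells came from fresh tissue or from an established line.

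Macrophages live in adipose tissue beside fat cells and take up dead cells and lipid. They depend on the growth factor CSF1, whose receptor Csf1r they carry on their surface, and on the transcription factor PU.1, encoded by Spi1, which switches on many of the genes that mark them. Activating surface receptors signal through adaptor proteins such as Fcer1g and Tyrobp, and the complement protein C1q is made largely by tissue macrophages. Resident macrophages of fat carry the mannose receptor Mrc1, and inflammatory ones are known for Fc receptors, complement receptors and the enzyme that makes superoxide.

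The array medians lay between 44.65 and 46.81 intensity units, and 28.0% to 29.0% of values per array lay under the floor of 16 used here. On the log2 scale the correlation was 0.994 to 0.996 between arrays of 1 group and 0.984 to 0.985 between groups. The fat cell hormone gene Adipoq averaged 13158 ± 238 with rosiglitazone and 12828 ± 147 in controls (SD, n = 3 each), so the labelled cell type was plain in both groups. Precision is limited by having 3 arrays a group. The labels do not say whether the 3 samples were grown as separate cultures, and the p-values therefore reflect only how these samples differ, which may be technical.

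Most of the myeloid markers were lower with rosiglitazone. Of the 46 genes, 43 passed the filter on low values, and of these 36 fell, 1 rose and 6 did not pass the test (limma, Benjamini-Hochberg adjusted p under 0.05 over 12952 genes). Among all genes tested 35.8% were called lower and 23.6% higher. In 36 genes all 3 rosiglitazone arrays lay below all 3 control arrays, which held for 38.3% of all genes. In 1 gene all 3 lay above, as in 25.7% of all genes. The median log2 change of the 43 genes was −1.17, against −0.05 over all genes tested, and 27 of them fell by a log2 change of 1 or more, a size of fall reached by 4.62% of all genes. In a bulk RNA sample fewer cells of a type and less of its RNA per cell cannot be told apart. Of the tested genes, Cd33 and Ncf4 passed the filter only through their control arrays, while Fcgr1 passed it only through its rosiglitazone arrays.

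**Figure D1:**
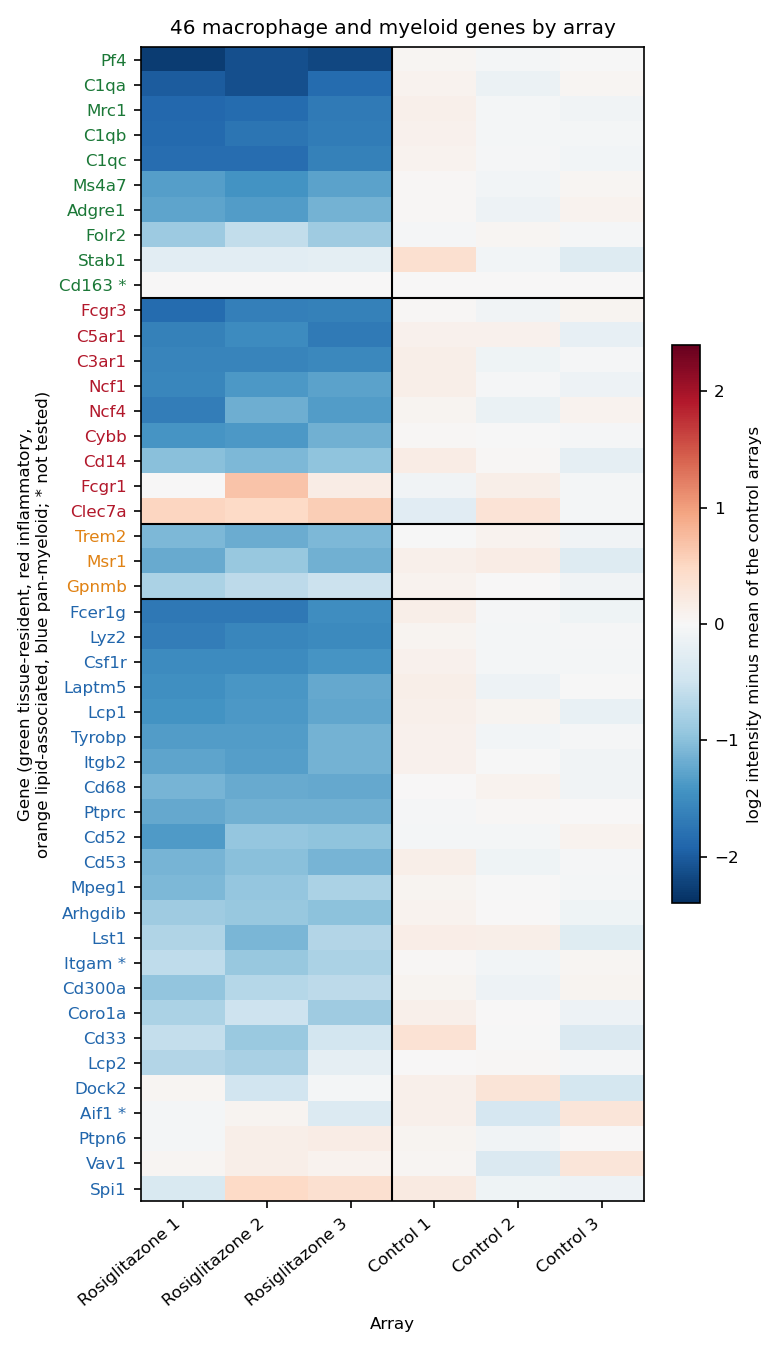
Heat map of the 46 genes (rows, grouped by class) on the 6 arrays (columns, the 3 rosiglitazone arrays on the left and the 3 control arrays on the right), coloured by the log2 difference from the gene's control mean (blue lower, red higher; an asterisk marks genes too dim to test). The rosiglitazone columns are darkest on the low side in the tissue-resident rows from Pf4, whose log2 change was −2.19, to C1qc, at −1.76.

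The sequences just upstream of 6 of these genes are shown, chosen because each holds the core letters that PU.1 binds. They are the 5 genes with the largest falls among those with the letters upstream of a start, and Clec7a, which rose. Fcer1g, C5ar1, Lyz2 and C3ar1, with log2 changes of −1.64 to −1.57, held no such letters in the promoters searched. C1qa, with a log2 change of −1.99, matched none of the promoters by symbol and was not searched. The letters searched were GAGGAA and, on the other strand, TTCCTC, in the RefSeq promoters of build GRCm38.p6, from 250 bases before to 50 bases after each gene's start. Each line is a stretch of 100 bases written 5′ to 3′ on the strand of the gene, and capitals mark the motif as it reads on that strand. The stretches of Pf4 (chr5:90772335-90772434, plus strand), Mrc1 (chr2:14229314-14229413, plus strand), C1qb (chr4:136886201-136886300, minus strand) and Fcgr3 (chr1:171059404-171059503, minus strand) end at the base before a start. Those of C1qc (chr4:136893055-136893154, minus strand) and Clec7a (chr6:129472823-129472922, minus strand) lie further upstream.
Pf4: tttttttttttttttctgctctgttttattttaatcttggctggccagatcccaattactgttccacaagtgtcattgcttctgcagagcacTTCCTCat
Mrc1: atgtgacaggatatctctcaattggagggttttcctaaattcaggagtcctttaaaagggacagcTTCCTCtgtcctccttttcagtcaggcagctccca
C1qb: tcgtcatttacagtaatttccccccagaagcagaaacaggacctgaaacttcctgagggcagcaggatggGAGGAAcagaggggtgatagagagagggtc
C1qc: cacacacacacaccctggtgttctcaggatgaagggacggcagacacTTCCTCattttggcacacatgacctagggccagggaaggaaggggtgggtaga
Fcgr3: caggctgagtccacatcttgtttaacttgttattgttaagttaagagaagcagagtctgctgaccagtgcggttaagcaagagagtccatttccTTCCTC
Clec7a: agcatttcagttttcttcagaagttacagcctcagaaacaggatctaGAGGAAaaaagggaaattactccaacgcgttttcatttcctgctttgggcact

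Of the 46 genes, 35 matched the promoter table by symbol, and 23 of the 35 (65.7%) had the motif in at least 1 promoter, against 31.3% of all 27025 genes in the table. Counted by promoter, 25 of 44 (56.8%) held it, against 28.3% of all 32851 promoters. The 21 tested genes with the motif had a median log2 change of −1.11, and 16 of them fell. The 11 tested genes without it had a median of −1.35, and 10 of them fell. A match describes letters in a window and does not show that a factor binds there.

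The tissue-resident markers had the lowest median of the 4 classes. Of 10 genes 9 were tested and 8 fell, with a median log2 change of −1.76 and a range from −2.19 to −0.25. That median depends on how genes are placed. Other schemes place Adgre1, C1qa, C1qb, C1qc, Cd14, C3ar1, Fcgr1 and Fcgr3 in another class. Without these genes the tissue-resident median was −1.35 and the inflammatory one −1.39. The inflammatory value is that of Ncf4, which passed the filter through its controls alone, so these medians do not settle the order of the classes. Pf4, which encodes the chemokine CXCL4, had intensities of 145, 163 and 156 with rosiglitazone, against 733, 684 and 702 in controls. The groups were far apart, and the rosiglitazone mean was 21.9% of the control mean (log2 change −2.19, SE 0.06, limma adjusted p = 4.2e-14). The 3 chains of complement C1q moved together. C1qa, the A chain, had 334, 309 and 368 with rosiglitazone, against 1411, 1211 and 1380.3 in controls. C1qb, the B chain, had 386, 421 and 444 with rosiglitazone, against 1515, 1364 and 1363 in controls. C1qc, the C chain, had 349.9, 349 and 406 with rosiglitazone, against 1320.4, 1217 and 1194 in controls. For all 3 chains the highest rosiglitazone array stayed well below the lowest control array, with log2 changes of −1.99, −1.76 and −1.76 for C1qa, C1qb and C1qc (SE 0.07, 0.06 and 0.06). The adjusted p-values from limma were 3.7e-13, 2.3e-13 and 4.9e-13 in the same order.

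Mrc1, the endocytic mannose receptor CD206, had 294, 301 and 333 with rosiglitazone, against 1175, 1043 and 1020.5 in controls. Its log2 change of −1.80 (SE 0.06, limma adjusted p = 4.9e-13) lay beside those of the C1q chains. Ms4a7, a membrane protein of macrophages, averaged 307 ± 15.4 with rosiglitazone and 783 ± 33.2 in controls (SD, n = 3 each; log2 change −1.35). Adgre1, the F4/80 antigen by which mouse macrophages are often recognised, had 306, 289 and 332 with rosiglitazone, against 751, 673 and 776 in controls. The rosiglitazone mean of Adgre1 was 42.1% of the control mean (log2 change −1.25, SE 0.06, limma adjusted p = 5.9e-11). Folr2, the folate receptor beta of resident macrophages, fell less, with 61.2 ± 6.63 with rosiglitazone and 104 ± 3.48 in controls (SD, n = 3 each; log2 change −0.77).

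The scavenger receptor gene Stab1 did not pass the test. It had 168, 167 and 169.5 with rosiglitazone, against 259.5, 191 and 160.2 in controls, so that the third control lay below every rosiglitazone array. Its log2 change of −0.25 had a 95% interval from −0.51 to 0.02 (limma adjusted p = 0.10), and without that control array it was −0.40 and passed (adjusted p = 0.0035). Cd163, the haemoglobin scavenger receptor that often marks resident macrophages, was too dim to test, with 12.4, 12.8 and 8.80 with rosiglitazone and 6.72, 13.6 and 13.1 in controls, all under the floor.

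Of the 9 inflammatory markers 7 fell, 1 rose and 1 did not pass, with a median log2 change of −1.39. That median is the value of Ncf4, which passed the filter through its controls alone. With a floor of 64 the inflammatory median was −0.42, while the tissue-resident one stayed at −1.76. Fcgr3, an activating receptor for IgG, had 188, 218 and 222 with rosiglitazone, against 691, 639 and 708 in controls. With a log2 change of −1.70 (SE 0.07, limma adjusted p = 2.6e-12) it fell most of this class. The receptors for the complement fragments C3a and C5a fell by similar sizes. C3ar1 had 79.7, 79.1 and 81.7 with rosiglitazone, against 262, 220.2 and 233 in controls (log2 change −1.57), although another of its probe sets gave a change of −0.11. C5ar1 had 27.5, 29.6 and 26.1 with rosiglitazone, against 90.3, 90.3 and 73.2 in controls (log2 change −1.60, SE 0.16). Its rosiglitazone values lay close to the filter's limit of 27.3.

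Cybb, the catalytic subunit of the phagocyte NADPH oxidase, which makes superoxide, had 72.6, 74.6 and 86.9 with rosiglitazone, against 199, 193 and 191 in controls (log2 change −1.32, SE 0.09). Ncf1, the p47phox subunit of the same enzyme, averaged 48.7 ± 4.64 with rosiglitazone and 129 ± 12.6 in controls (SD, n = 3 each; log2 change −1.41). The 95% intervals of these 2 changes overlapped. Ncf4, the p40phox subunit, was at 19.5, 27.5 and 24.4 with rosiglitazone and at 64.7, 55.5 and 65.4 in controls. It passed the filter through its controls alone, so its log2 change of −1.39 supports nothing further, and with a floor of 64 it was −0.02 and did not pass (limma adjusted p = 0.20). Cd14, the co-receptor for bacterial lipopolysaccharide, was at 42.4, 40.5 and 43.8 with rosiglitazone and at 96.7, 87.5 and 73.7 in controls (log2 change −1.02, SE 0.14, limma adjusted p = 1.2e-05).

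Clec7a, the beta-glucan receptor dectin-1, was the gene that rose. It had 65.8, 63.98 and 68.5 with rosiglitazone, against 37.7, 57.8 and 44.1 in controls. The groups did not overlap, but the second control came close to the rosiglitazone arrays. The log2 change of 0.53 (SE 0.17, limma adjusted p = 0.011) did not pass without the first control array (0.39, adjusted p = 0.059), with no filter on low values (adjusted p = 0.074) or with a floor of 64 (0.05, adjusted p = 0.22). Fcgr1, the high-affinity IgG receptor, was dim in both groups, with 27.2, 43.4 and 30.4 with rosiglitazone and 25.3, 29.8 and 26.0 in controls. Its groups overlapped, and its log2 change of 0.29 had a 95% interval from −0.21 to 0.79 (limma adjusted p = 0.31).

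All 3 lipid-associated markers fell, with a median log2 change of −1.09. Trem2, a lipid-sensing receptor that signals through Tyrobp, had 58.0, 54.1 and 58.5 with rosiglitazone, against 122, 130.2 and 116 in controls (log2 change −1.11, SE 0.11). Msr1, the class A scavenger receptor that takes up modified lipoproteins, had 67.6, 83.0 and 69.5 with rosiglitazone, against 169.8, 176 and 126 in controls (log2 change −1.09, SE 0.13). Another of its probe sets, of similar mean intensity, gave a change of −0.06 and did not pass. Gpnmb, a lysosomal glycoprotein of lipid-laden macrophages, had 1179, 1288 and 1399 with rosiglitazone, against 2119, 2005 and 1889 in controls. Its groups were separate, but it fell less than the other two, to 64.3% of the control mean (log2 change −0.64, SE 0.05, limma adjusted p = 3.4e-08).

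**Figure D2:**
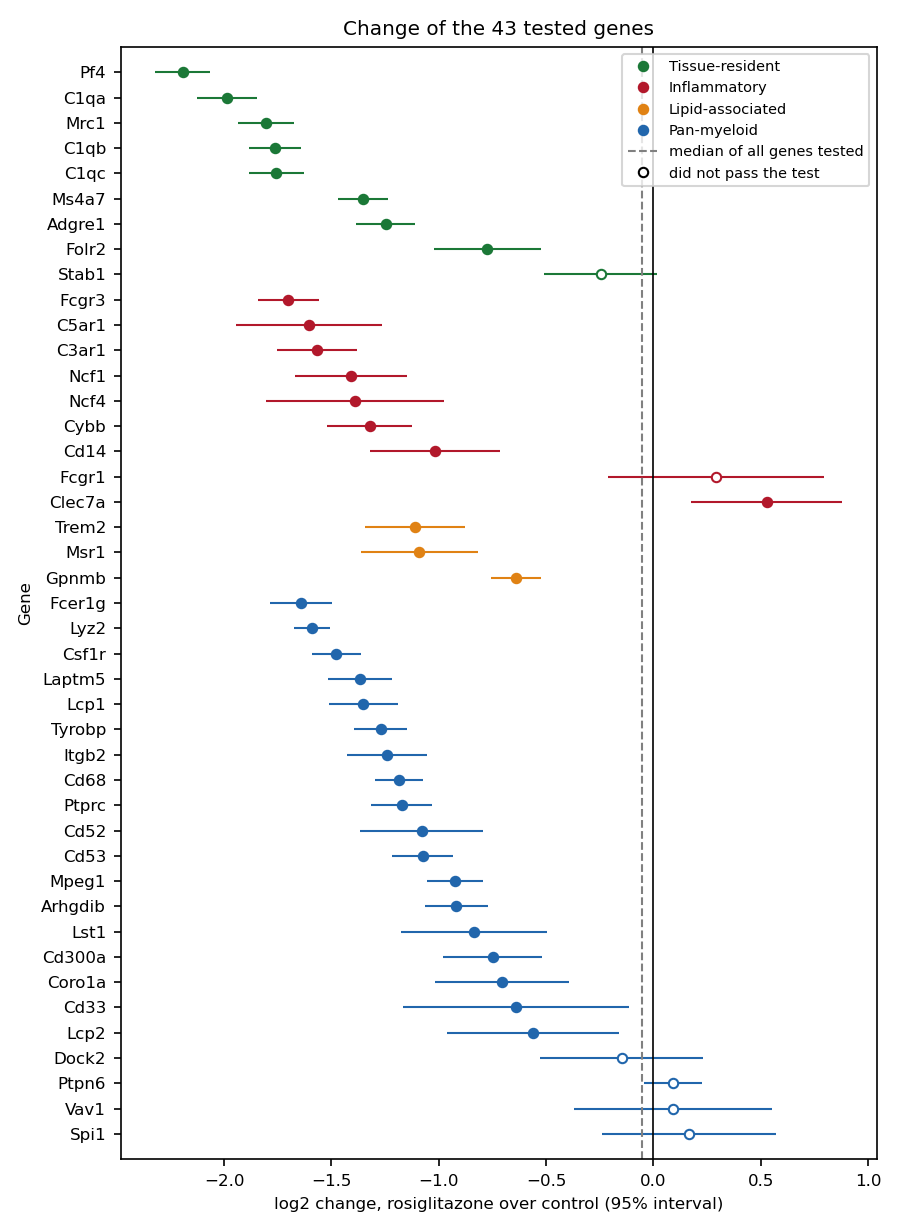
Log2 change of each of the 43 tested genes, rosiglitazone over control (horizontal axis; points are limma estimates from 3 arrays a group, bars are 95% intervals), coloured by class, with open points for genes that did not pass the test and a dashed line at the median of all genes tested, −0.05. Pf4 at −2.19 is furthest left, and Clec7a at 0.53 is the filled point right of 0.

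Of the 24 pan-myeloid genes 22 were tested, and 18 of these fell and 4 did not pass, with a median log2 change of −0.999 and a range from −1.64 to 0.17. Csf1r, the receptor for CSF1, had 349, 347 and 374 with rosiglitazone, against 1062, 961 and 956 in controls (log2 change −1.48, SE 0.05, limma adjusted p = 9.0e-13). The 2 signalling adaptors fell by different sizes. Fcer1g, the adaptor of Fc receptors, had 267, 269 and 312 with rosiglitazone, against 965, 859 and 824 in controls (log2 change −1.64, 95% interval −1.79 to −1.50). Tyrobp, the adaptor also called DAP12, had 458, 458 and 523 with rosiglitazone, against 1237, 1101 and 1129.9 in controls (log2 change −1.27, 95% interval −1.39 to −1.15). The intervals of the 2 adaptors did not overlap.

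Lyz2, which encodes lysozyme, had 1154, 1225 and 1258 with rosiglitazone, against 3819, 3528 and 3594 in controls. That is 33.2% of the control mean (log2 change −1.59, SE 0.04, limma adjusted p = 1.4e-14), with the lowest adjusted p of the 43 genes. Cd68, an endosomal glycoprotein widely used to count macrophages, had 450.5, 423 and 414 with rosiglitazone, against 978, 1032 and 918 in controls (log2 change −1.18, SE 0.05). Laptm5, a lysosomal protein of blood cells, averaged 293 ± 26.6 with rosiglitazone and 755 ± 65.3 in controls (SD, n = 3 each; log2 change −1.37). Mpeg1, the pore-forming perforin-2, was less changed, with 526, 578 and 648 with rosiglitazone, against 1155, 1091 and 1067 in controls (log2 change −0.92, SE 0.06).

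Ptprc, which encodes the CD45 phosphatase of leukocytes, had 129.9, 137 and 137 with rosiglitazone, against 298, 308 and 304 in controls (log2 change −1.17, SE 0.07, limma adjusted p = 2.3e-10). Itgb2, the integrin beta chain CD18, fell by 1.24 on the log2 scale. The tetraspanin gene Cd53 and the small surface antigen gene Cd52 each fell by 1.08. Itgam, the alpha chain CD11b that pairs with CD18, was too dim to test, with 21.0, 17.1 and 18.9 with rosiglitazone, below 32.5, 30.4 and 33.1 in controls. Aif1, which encodes the calcium-binding protein IBA1, was too dim as well, at 20.7, 22.5 and 17.2 with rosiglitazone and 23.3, 16.2 and 26.1 in controls.

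Lcp1, the actin-bundling L-plastin, averaged 208 ± 12.8 with rosiglitazone and 532 ± 56.0 in controls (SD, n = 3 each; log2 change −1.35). Log2 changes were −0.92 for Arhgdib, −0.83 for Lst1 and −0.70 for the actin regulator Coro1a. They were −0.75 for the inhibitory receptor gene Cd300a, −0.64 for the inhibitory siglec gene Cd33 and −0.56 for Lcp2, the adaptor SLP-76. The calls of Cd33 (limma adjusted p = 0.036) and Lcp2 (adjusted p = 0.018) were the least secure: each was lost when some arrays were left out, up to an adjusted p of 0.19 for Cd33 without the first control and of 0.074 for Lcp2 without the second rosiglitazone array. After median centring of the arrays their adjusted p-values were 0.085 for Cd33 and 0.057 for Lcp2.

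The 4 pan-myeloid genes that did not pass included the gene of PU.1. Spi1 had 50.5, 91.6 and 85.8 with rosiglitazone, against 76.2, 61.0 and 60.2 in controls. The first rosiglitazone array lay below all controls and the other two above all controls, and the log2 change of 0.17 had a 95% interval from −0.24 to 0.57 (limma adjusted p = 0.48). Without that first array the change was 0.44 and passed (adjusted p = 0.016). Vav1, an exchange factor of blood cells, was at 33.4, 35.3 and 34.0 with rosiglitazone and at 33.2, 25.3 and 39.5 in controls, close to the filter's limit. Dock2, an exchange factor for Rac, was at 77.6, 54.6 and 73.0 with rosiglitazone and at 81.2, 92.6 and 55.9 in controls, with overlapping groups. Ptpn6, the phosphatase SHP-1, was at 392, 445 and 454 with rosiglitazone and at 421, 383 and 407 in controls (log2 change 0.09, 95% interval −0.04 to 0.22, limma adjusted p = 0.23).

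Ptpn6 depended on the scaling and on the probe set read. It passed as higher after median centring (log2 change 0.21, limma adjusted p = 0.010) and after quantile normalization (0.20, adjusted p = 0.019). The probe set used is of a kind whose probes can match more than 1 transcript. The gene's other probe set had 37.0, 32.1 and 34.0 with rosiglitazone, against 82.7, 85.8 and 68.4 in controls, a log2 change of −1.20 (limma adjusted p = 6.3e-06 over 27022 probe sets). Of the 79 probe sets 62 passed the filter, and 50 of them were lower, 1 was higher and 11 did not pass the test, where 30.7% of all probe sets were lower and 21.2% higher. In 11 genes at least 2 probe sets were tested, and in 5 of these (C1qb, Coro1a, Csf1r, Cybb and Gpnmb) every tested probe set was lower. In the other 6 (C3ar1, Laptm5, Lcp1, Msr1, Ncf1 and Ptpn6) 1 probe set did not pass while the rest were lower. For C1qb the 3 probe sets ranged from −1.82 to −1.72, and for Csf1r from −1.48 to −0.47. For Laptm5 4 probe sets lay at −1.55 to −1.09 and the dimmest at 0.26 (adjusted p = 0.17), and for Lcp1 the second probe set was at 0.02 beside −1.35.

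**Figure D3:**
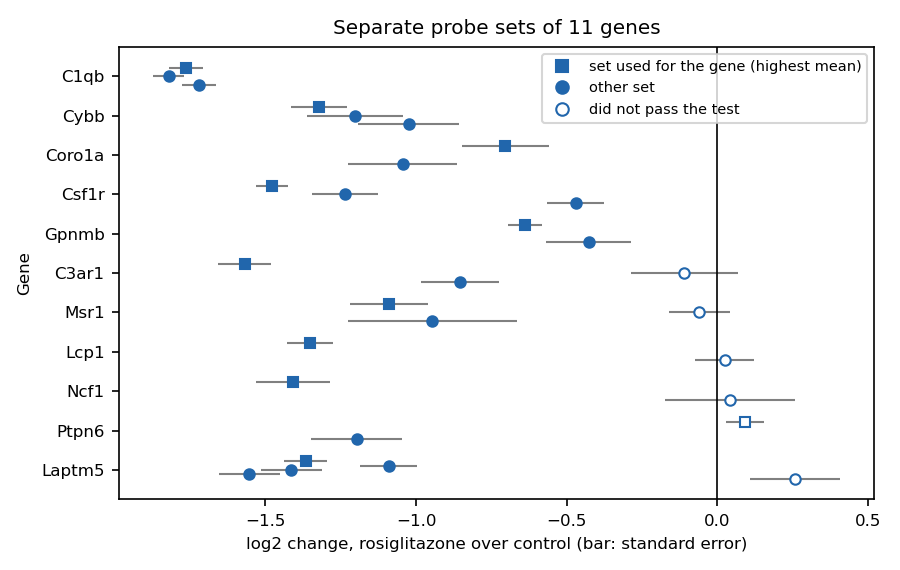
Log2 change, rosiglitazone over control, of each tested probe set (points) of the genes with at least 2 tested probe sets, with squares for the probe set read for the gene, circles for its other probe sets, bars of 1 standard error and open symbols for probe sets that did not pass the test. The 3 points of C1qb lie together between −1.82 and −1.72, while those of Ptpn6 lie at −1.20 and 0.09.

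Brighter genes showed larger falls. The 31 tested genes with a control mean of 100 or more had a median log2 change of −1.27, and 29 of them fell. The 12 with a control mean under 100 had a median of −0.60, and 7 of them fell. Across the 43 genes the log2 change and the log2 control mean correlated at Pearson r = −0.63 and with a Spearman coefficient of −0.63, over genes that share the same 6 arrays, with the control mean in both measures. The part of the floor in this difference was not tested.

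The classes were then set against Ptprc, as a gene common to all leukocytes, by fitting the ratio of each gene to Ptprc within each array over 12951 genes. Ptprc fell itself, so 94.9% of all genes were higher and 1.70% lower relative to it. Its log2 change of −1.17 is also the median of the 43 tested myeloid genes, so dividing by it centres them, and the near balance of lower and higher ratios among them follows from that choice. Of the other 42 tested myeloid genes 14 had a lower ratio to Ptprc, 16 a higher one and 12 did not pass (limma, Benjamini-Hochberg). Of the 9 tissue-resident genes 6 were lower and 2 higher, of the 21 pan-myeloid genes 5 were lower and 11 higher, and of the 9 inflammatory genes 3 were lower and 2 higher. Among the inflammatory genes with a higher ratio, Fcgr1 passed the filter through its rosiglitazone arrays alone, and its call supports nothing further. Of the 3 lipid-associated genes none was lower and Gpnmb was higher (log2 change of the ratio 0.53). Pf4 fell furthest relative to Ptprc, by 1.02 on the log2 scale (95% interval −1.16 to −0.88). C1qa followed with a change of the ratio of −0.81, Mrc1 with −0.63, and C1qb and C1qc each with −0.59, and Fcgr3 with −0.53. Cd68 kept its ratio to Ptprc within a narrow interval, with a log2 change of −0.01 (95% interval −0.14 to 0.12), and so did Adgre1 at −0.08 (−0.22 to 0.07) and Tyrobp at −0.10 (−0.23 to 0.03), although Tyrobp passed as lower without the third rosiglitazone array.

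The same test against other genes of the 46 gave fewer or more calls. Relative to Cd68 13 genes were lower and 16 higher, relative to Tyrobp 10 were lower and 16 higher, and relative to Csf1r 6 were lower and 26 higher. Over all genes 1.56% were lower and 94.7% higher relative to Cd68, 1.13% and 95.4% relative to Tyrobp, and 0.649% and 97.5% relative to Csf1r. C1qa, C1qb, C1qc, Fcgr3, Mrc1 and Pf4 were lower in all 4 tests. Those tests share the same arrays and gene values, and all 4 reference genes fell, so their agreement adds no separate support. With each array left out in turn, between 10 and 16 genes were lower relative to Ptprc and between 14 and 17 higher. C5ar1, Laptm5, Lcp1 and Ms4a7 lost their lower call without at least 1 of the arrays, and the other 10 genes kept it.

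**Figure D4:**
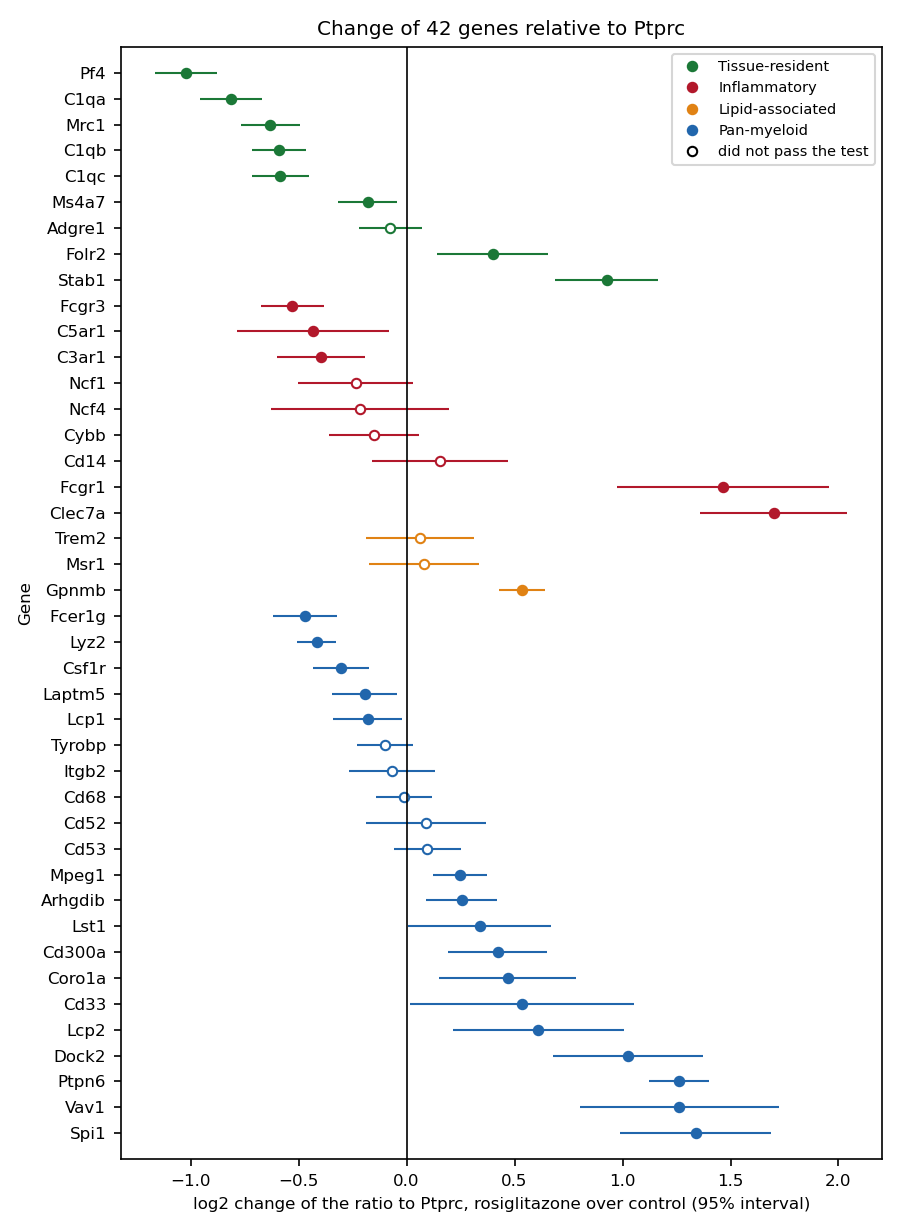
Log2 change of the ratio of each of 42 genes to Ptprc, rosiglitazone over control (horizontal axis; points are limma estimates from 3 arrays a group, bars are 95% intervals), coloured by class, with open points for ratios that did not pass the test. Pf4 at −1.02 and C1qa at −0.81 lie furthest left. Spi1 at 1.34, Fcgr1 at 1.46 and Clec7a at 1.70 lie furthest right. Fcgr1 passed the filter through its rosiglitazone arrays alone.

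The ligands of Csf1r were lower too. Csf1, the growth factor on which macrophages depend, had 1284, 1330.0 and 1392 with rosiglitazone, against 2943, 3090.4 and 2988 in controls. Its log2 change of −1.17 (SE 0.04, limma adjusted p = 1.8e-13) left the groups well apart. Il34, which encodes the other ligand of the same receptor, averaged 44.6 ± 7.38 with rosiglitazone and 71.2 ± 1.35 in controls (SD, n = 3 each; log2 change −0.69, adjusted p = 0.0011). Csf2 and Csf3, the growth factors of granulocytes and macrophages, lay under the floor in both groups.

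A further list of 76 macrophage genes that are not among the 46 had 59 tested members. Of these 39 fell, 3 rose and 17 did not pass, with a median log2 change of −0.83. Among the 39, Tfec had 14.4, 14.3 and 25.0 with rosiglitazone, against 54.0, 49.1 and 45.95 in controls. Tfec passed the filter through its controls alone, so its call supports nothing further. Over all genes tested 35.8% were lower and 23.6% higher. Lyve1, a hyaluronan receptor of lymphatic vessels and of perivascular macrophages, had 25.8, 27.6 and 29.0 with rosiglitazone, against 284, 223 and 243 in controls (log2 change −3.18, SE 0.12, limma adjusted p = 1.5e-12). P2ry6, a nucleotide receptor gene, had a log2 change of −1.90, Ms4a6b of −1.80 and Ms4a6c of −1.46. Alox5ap, needed for leukotriene synthesis, had a change of −1.76, and the lectin gene Clec4n of −1.64.

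Genes induced by classical activation were tested for 8 of 14 members, of which 4 fell and 1 rose. The shares over all genes tested were 35.8% lower and 23.6% higher. Ccl2, the chemokine that draws monocytes, had 117, 135 and 128 with rosiglitazone, against 622, 802 and 656 in controls (log2 change −2.45, SE 0.09, limma adjusted p = 6.2e-13). The prostaglandin synthase gene Ptgs2 was at 10.1, 16.2 and 14.0 with rosiglitazone, at or near the floor, and at 46.1, 42.7 and 40.3 in controls. It was called lower (limma adjusted p = 5.5e-05), but it passed the filter through its controls alone. Its call, counted among the 4, therefore supports nothing further. The floor sets the size of its change and none is given. The chemokine genes Cxcl10, which interferon induces, and Ccl3 had log2 changes of −0.77 and −0.50. The groups of Cxcl10 overlapped, with 58.3 in the second rosiglitazone array and 53.9 in the first control. Il1b, the gene of the cytokine interleukin-1 beta, rose by 0.50 (adjusted p = 0.043) from a low level, at 42.5, 39.6 and 48.8 with rosiglitazone and 34.5, 24.6 and 33.9 in controls. Of 10 genes of alternative activation 3 were bright enough to test. Retnla fell by 0.76 on the log2 scale, the lectin gene Clec10a rose by 0.65, and the transglutaminase gene Tgm2, which many cell types express, rose by 0.23.

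Markers of stromal cells and of fat cells moved in different ways, where 35.8% of all genes tested were lower and 23.6% higher. Of 10 tested stromal genes 9 fell, with a median log2 change of −1.22, and their summed intensity was 21213 to 22265 per array with rosiglitazone and 39859 to 40668 in controls. Among them Dcn, the matrix proteoglycan decorin, had 2242, 2364 and 2398 with rosiglitazone, against 6644, 6734 and 6752 in controls (log2 change −1.52). Pdgfra, a receptor of fat cell precursors, averaged 1605 ± 7.90 with rosiglitazone and 3619 ± 77.4 in controls (SD, n = 3 each; log2 change −1.17). The log2 change was −1.49 for Cd34, −1.47 for Lum, −1.38 for the collagen gene Col1a1 and −1.27 for Thy1. The stromal fall was of the size of the myeloid one, and its part in the myeloid result was not tested. Of 9 fat cell genes 5 fell and 1 rose, with a median log2 change of −0.23 and sums of 67376 to 67590 with rosiglitazone and 75901 to 77171 in controls. The log2 change was −0.87 for Retn, the gene of resistin, −0.60 for Dgat2, −0.36 for Pparg, −0.25 for Cebpa, −0.23 for Lipe and 0.28 for Cidec. The lipid carrier gene Fabp4 had a log2 change of −0.04 (limma adjusted p = 0.10).

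Most markers of other blood cells and of vessel cells were too dim to test. Among all 12952 genes tested 35.8% were lower and 23.6% higher. Of 10 neutrophil genes 3 were tested, with Camp lower (log2 change −0.79) and Mpo higher (0.38). Of 8 mast cell genes 2 were tested and of 13 lymphocyte genes 2 were tested, and none of these passed. Among the mast cell genes the log2 changes were 0.07 for Tpsb2 and 0.30 for Cma1. Among the lymphocyte genes they were 0.01 for Cd8a and 0.50 for Cd79b, which passed the filter through its rosiglitazone arrays alone. Of 9 dendritic cell genes 3 were tested and Itgae alone passed, with a log2 change of 0.47. Zbtb46 (0.13) and Cd209a (0.42) did not pass the test, and Cd209a passed the filter through its rosiglitazone arrays alone. The markers Itgax, Flt3 and Xcr1 lay under the filter's limit. Of 8 endothelial genes Tek alone was tested and was lower (log2 change −1.15), while Pecam1, Cdh5 and Kdr lay under the filter's limit in both groups.

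**Figure D5:**
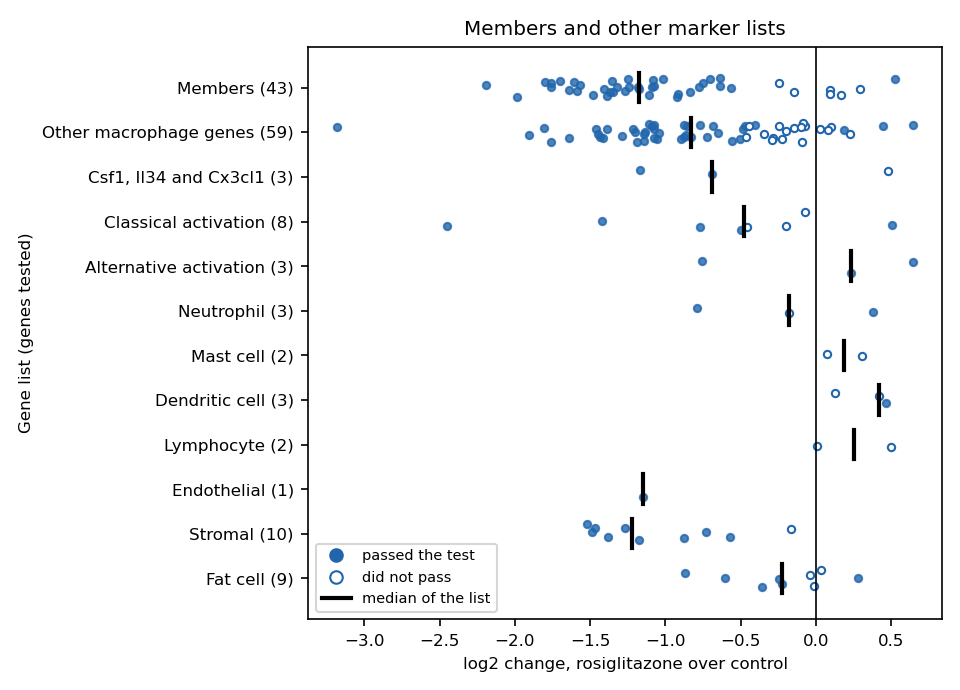
Log2 change, rosiglitazone over control, of each tested gene (points) in the 46 myeloid markers and in other marker lists, with the number tested in brackets, open points for genes that did not pass the test and a bar at each list's median. The myeloid median is at −1.17 and the stromal median at −1.22, with the fat cell median at −0.23.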

How the data were processed

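Total RNA was extracted with TRIzol and silica columns and made into biotinylated cRNA for Affymetrix mouse 430 2.0 arrays, per the labels. The authors deposited 1 linear intensity per probe set and array. How they corrected, summarized and normalized the arrays is not given in the sources used. The labels' treatment protocol gives rosiglitazone for all 6 samples, so samples were grouped by title and treatment characteristic. Probe sets were named through the platform annotation, and 34945 had 1 symbol. Values under 16 were raised to 16 before log2. Leaving out 64 control probe sets and the dimmest 40% by mean (under 27.3) kept 27022. Each gene was read from its probe set with the highest mean. The comparison used lmFit and eBayes with a trend from limma 3.58.1 (R 4.3.3), without covariates, two-sided, and p-values were adjusted by Benjamini-Hochberg over 12952 genes, with calls under 0.05. The fit was tested on simulated data. With 3 arrays a group the smallest two-sided exact permutation p is 0.1. Samples with the same number did not deviate together (correlations −0.02, −0.02 and 0.06). All 46 genes are named. Of each other list, up to 6 called members with the largest change are named, or, without a call, the tested ones among the 3 brightest, and a few genes whatever their values. Undetected markers of other cells, and Zbtb46, Cd209a and Tfec, were named after their values were seen. The 46 genes, their classes and the lists were chosen with earlier results of these data known. The ratio to Ptprc and 3 other alternatives were added after seeing the data.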

Additional observations from a re-analysis of the deposited data

How the results depend on the processing

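Over all alternatives that gave a count, 27 to 37 of the 46 genes were lower with rosiglitazone, against 36 as reported. The lowest count, 27, came from leaving out the dimmest 60%, where 29 genes were tested. With each array left out in turn 34 to 37 were lower and 0 to 3 higher: none was higher without the first control, and Clec7a, Spi1 and Ptpn6 were higher without the first rosiglitazone array. The count of higher genes, 1 as reported, was 0 with no filter, with the lowest 60% left out, with a floor of 64, at an adjusted p under 0.01 and with limma's treat against a 1.5-fold change, and 2 after quantile normalization, after median centring and with array weights. The median change of the tested markers was −1.32 with the lowest 60% left out (29 tested), −1.07 after quantile normalization, −1.05 after median centring, −1.01 with a floor of 64, −1.03 with the mean of a gene's probe sets, and −1.35 among the 21 genes with a mean of 200 or more, and −1.21 to −1.14 with arrays left out. The tissue-resident median was −1.55 with no filter or with the lowest 20% left out, −1.63 after median centring and −1.35 without genes that other schemes place in another class, and −1.81 to −1.71 with arrays left out. The inflammatory median was −1.49 with the lowest 60% left out, −1.27 after median centring, −0.42 with a floor of 64, −1.02 with the mean of probe sets, and −1.70 for the 1 gene with a mean of 200 or more, and −1.42 to −1.27 with arrays left out. The pan-myeloid median was −0.92 with no filter, with the lowest 20% left out, with a floor of 64 and with the mean of probe sets, −1.21 with the lowest 60% left out, −0.90 after quantile normalization, −0.88 after median centring, −1.08 without probe sets that can match several transcripts, and −1.23 with a mean of 200 or more, and −1.03 to −0.95 with arrays left out. A filter changes which dim genes enter. The floor of 64 left the same 43 genes tested and raised values below it to 64. The causes of the other shifts were not tested. With a floor of 64 the calls of Ncf4, Lst1, Cd33, Lcp2 and Clec7a were lost. Ptpn6 turned to −0.55 as the mean of both probe sets and to −1.20 without probe sets that can match several transcripts, where Laptm5 turned to 0.26 (adjusted p = 0.16). C3ar1 was −0.11 and not called when probe sets were chosen by mean log2 value. Median centring raised the median of all genes by 0.12 and turned the split of 4635 lower and 3057 higher genes into 3285 and 4558, and quantile normalization into 3778 and 3942. With limma's treat against a 1.5-fold change 895 genes were lower and 325 higher over all genes, and 29 of the myeloid genes lower. With the replicate number as a block 36 were lower and 1 higher, and the block changed no other call among the 46. Since the numbers did not pair the samples, this block describes the fit alone. Genes near the floor have the least certain changes, and 3 of the 46 were too dim to test.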

Other observations

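Genes that lipid-laden macrophages share with fat cells did not move as a group. Of 11 tested members of such a list 5 fell, 4 rose and 2 did not pass, with a median log2 change of −0.02. Over all genes tested 35.8% were lower and 23.6% higher. Apoe, which encodes a carrier protein of lipoproteins, had 1183, 1116 and 1051 with rosiglitazone, against 3191, 3468 and 3262 in controls (log2 change −1.57, SE 0.04, limma adjusted p = 4.6e-14). The tetraspanin gene Cd9 averaged 327 ± 14.0 with rosiglitazone and 704 ± 15.7 in controls (SD, n = 3 each; log2 change −1.10). Lipa, the lysosomal acid lipase gene, rose, with 2268, 2345 and 2343 with rosiglitazone, against 1318, 1281 and 1233 in controls (log2 change 0.86, adjusted p = 4.7e-12). Atp6v0d2, a subunit of a proton pump, fell by 0.49 on the log2 scale. Plin2, which coats lipid droplets, rose by 0.26 on the log2 scale, and the lysosomal protease gene Ctsl fell by 0.22. Fat cells express several of these genes strongly, so their values do not describe macrophages alone.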
